A study of Homo sapiens with 6 samples.

Results

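The 50 genes described here are mitotic and G2/M genes. They were taken by name, as genes known to act in the G2 phase or in mitosis, and no expression value of the samples enters the rule. Each gene was found by matching its symbol in GENCODE release 44 to the Ensembl identifier in the tables, which gave 50 of the 60676 genes listed. The measurements were RNA-seq read counts from HT29 cells, a human line of colon adenocarcinoma labelled WT. The study used histidine depletion to look for mistranslation, and tryptophan depletion as a comparison for the general response to a missing amino acid.

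The cells were kept for 48 h in control medium (untreated), histidine-free medium or tryptophan-free medium, and each condition was sequenced in 2 libraries, 6 in all. The 2 untreated libraries served both depletions. Histidine-free medium was made on an RPMI base and tryptophan-free medium on a DMEM F-12 base, both with dialysed serum, and the base of the control medium for RNA-seq is not given in the sources used here. Between the depletions, the missing amino acid and the base medium therefore cannot be told apart. The control medium cannot have matched both bases, so the base differed from untreated in the histidine depletion, the tryptophan depletion or both. Which of these holds is not known, so an effect of the base cannot be separated there. Whether the control serum was dialysed is not given either. The labels do not say that the libraries of a condition came from separate cultures, so p-values measure only the spread between these libraries.

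Before a cell divides, the G2/M genes are transcribed in a wave that rises late in S phase and ends in mitosis. Cyclins A and B bind CDK1 to drive entry into mitosis, condensin and topoisomerase II shape the chromosomes, and kinetochores attach them to spindle microtubules. The checkpoint holds anaphase until each kinetochore is attached, whereupon CDC20 activates the anaphase-promoting complex (APC/C), separase cuts cohesin, and a contractile ring divides the cell. Many of these genes are bound by the DREAM complex in resting cells and by B-MYB and FOXM1 in cycling ones, through a promoter element called the CHR (cell cycle genes homology region) that often lies downstream of CCAAT boxes.

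The libraries held between 46390819 and 64388876 reads. Replicates differed by more than sampling noise in every condition, with a chi-square per degree of freedom of 8.77 in untreated, 4.03 in histidine-depleted and 1.85 in tryptophan-depleted cells. All 8 epithelial markers had reads and summed to between 1722 and 2546 RPKM (reads scaled to the length of the exons and to all reads of the library), against at most 4.26 RPKM for 4 leukocyte, 0.148 RPKM for 4 fibroblast and 0.137 RPKM for 3 endothelial markers. Of the fibroblast markers, 1 was at 0 in every library.

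The 50 members together took 0.565% and 0.571% of all reads in untreated cells. Their share was 0.391% and 0.389% in the libraries without histidine, and 0.129% and 0.133% in those without tryptophan. The conditions did not overlap in this share, and tryptophan-depleted cells were lowest. Because bulk RNA was measured, fewer cells in G2 or mitosis and less RNA of these genes per cell cannot be told apart. All 50 members passed the filter of a mean of at least 10 normalised counts, and 48 a mean of at least 50.

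Nearly the whole list was lower without tryptophan. In limma on log2(normalised count + 1), with Benjamini-Hochberg adjustment over all 17960 genes tested and a threshold of 0.05, 49 members were called lower and 0 higher, where 34.8% of all genes were called lower and 36.1% higher. In 48 members the level fell at least 2-fold, against 10.4% of all genes. The median log2 fold change of the members was -2.13, a 4.39-fold lower level, beside a median of 0.013 over all genes tested. The largest adjusted p among the 49 was 2.53e-10, for PRC1. The member not called was NUSAP1, whose reads are uncertain, as described with the spindle genes.

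Histidine depletion gave a mixed picture. Of the members, 33 were called lower, 8 higher and 9 not at all, where 38.2% of the 18288 genes tested were called lower and 39.1% higher. A fall of at least 2-fold was seen in 9 of the 50 members, a share near the 16.1% of all genes. The median log2 fold change of the members was -0.29, beside 0.010 over all genes tested, and the members ranged from -1.85 (SPC25) to 1.09 (ANLN). The 8 members called higher were CCNB1, PLK1, NEK2, NUF2, NDC80, PTTG1, KIF20A and ANLN. The 9 not called were CCNA2, CDK1, AURKA, SGO1, BUB3, BIRC5, UBE2C, RACGAP1 and NUSAP1. With quantile normalisation 8 of these 9 (all but NUSAP1) were called, 7 lower and SGO1 higher, so whether they differ from untreated depends on the scaling.

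**Figure D1:**
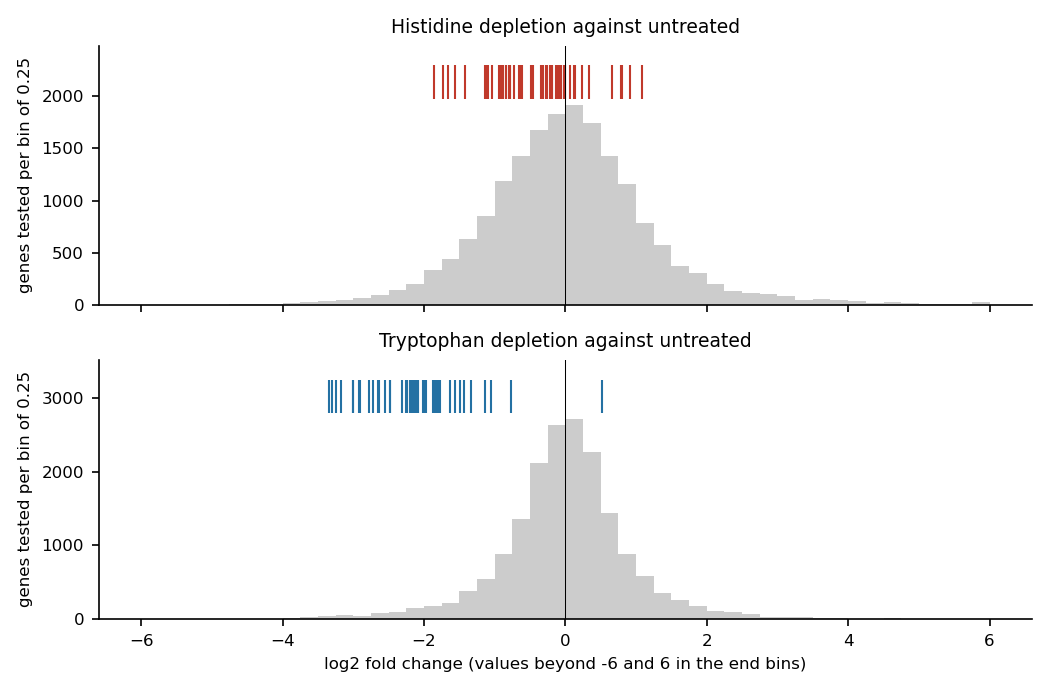
Distribution of the log2 fold change against untreated over all genes tested (grey bars, genes per bin of 0.25), with a coloured tick for each of the 50 members above it, for histidine depletion (top) and tryptophan depletion (bottom). After tryptophan depletion 48 members lie at -1 or lower, while after histidine depletion they spread from -1.85 to 1.09.

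The depleted conditions were also compared directly, with the reads of all 6 libraries scaled together. In this comparison 49 members were called higher after histidine than after tryptophan depletion and 0 lower, where 38.7% of the 18264 genes tested were called higher and 38.0% lower. The difference was at least 2-fold in 41 members, against 16.0% of all genes, and its median was 1.60 on the log2 scale. In 49 members both tryptophan-depleted libraries lay below the 4 others. In 37 members every untreated library lay above every histidine-depleted one and every histidine-depleted one above every tryptophan-depleted one. How many of all genes show either order was not counted, so these numbers describe the members only and have no background to be read against. The values per library given below are on this joint scale, in normalised read counts, whereas fold changes against untreated come from each table's own normalisation. Both depletions share the untreated libraries, so their fold changes are not independent and are given side by side.

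**Figure D2:**
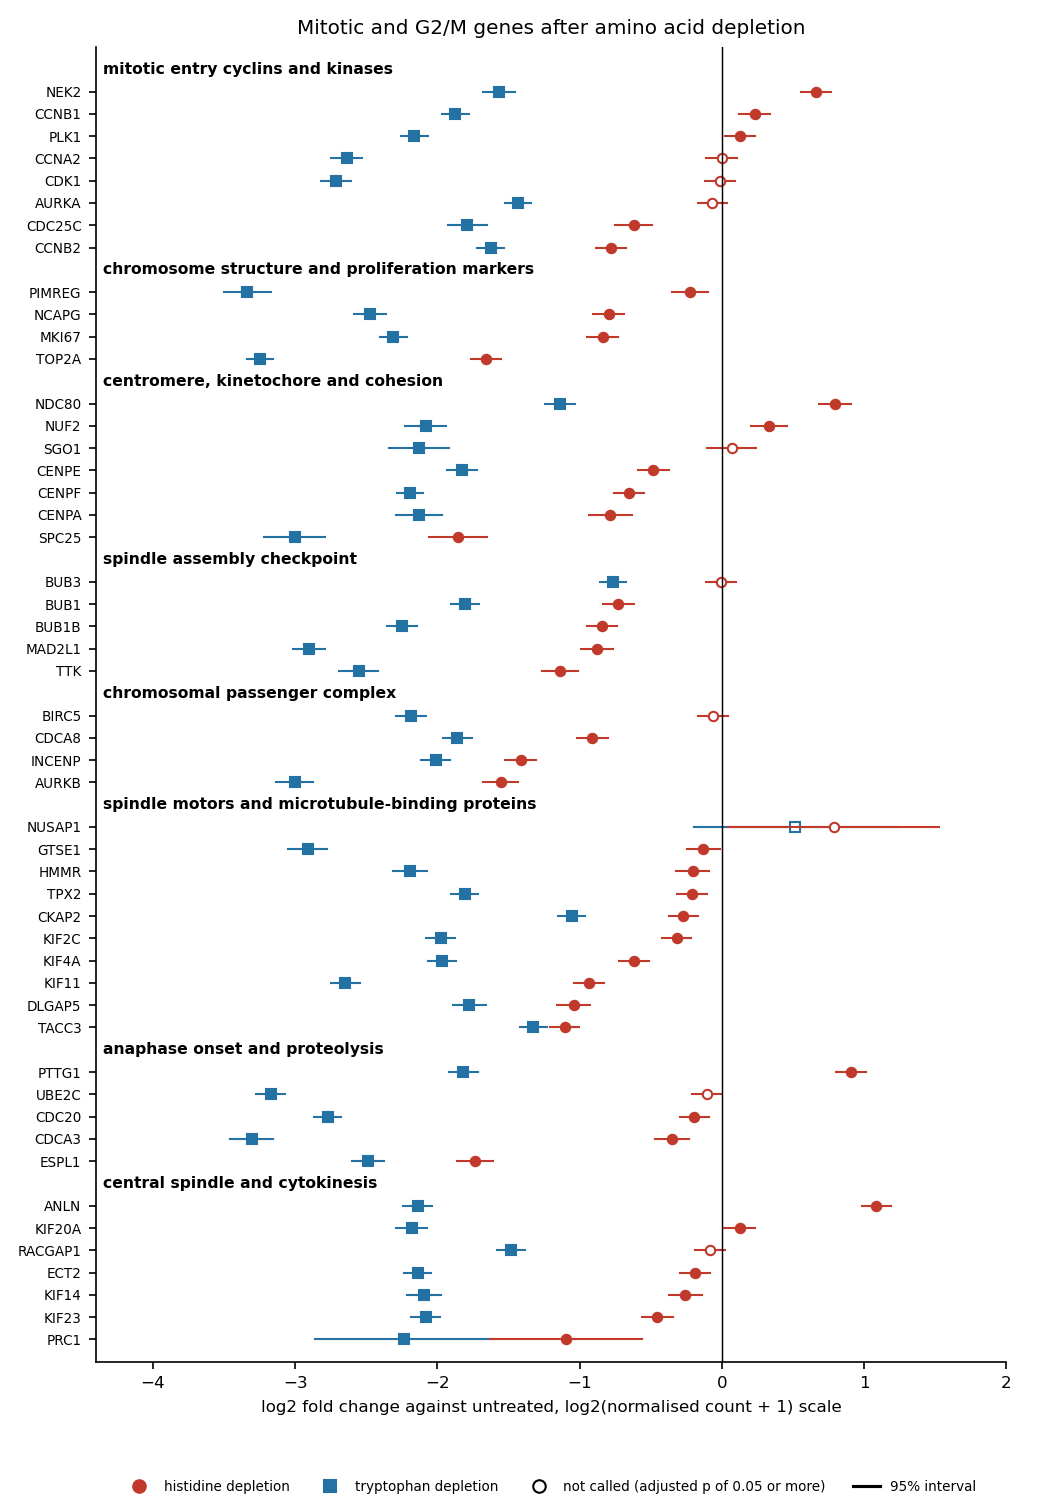
Log2 fold change against untreated of each of the 50 members by role, after histidine depletion (red circles) and tryptophan depletion (blue squares), with 95% intervals and open symbols where the change was not called. The blue squares lie left of the red circles in all 50 members, from -3.34 (PIMREG) to 0.52 (NUSAP1).

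Among the cyclins and kinases of mitotic entry, CDK1 and its partner cyclin A2 were not called without histidine and fell without tryptophan. CDK1, the kinase that starts mitosis, was at 6229 and 6546 normalised counts in untreated, 6334 and 6233 in histidine-depleted and 903 and 1057 in tryptophan-depleted libraries. Its log2 fold change was -0.014 ± 0.050 (SE) after histidine depletion, with a 95% interval from -0.12 to 0.090, and -2.71 ± 0.053 (SE) after tryptophan depletion. Cyclin A2 (CCNA2), which partners CDK2 and CDK1, was at 4402 and 4792 in untreated, 4548 and 4568 without histidine and 736 and 746 without tryptophan. The interval of the CCNA2 change without histidine ran from -0.11 to 0.11. With quantile normalisation both were called lower without histidine, at log2 fold changes of -0.21 for CDK1 and -0.15 for CCNA2 (adjusted p = 0.000157 and 0.00433 in limma). Scaled to all reads they stood lower too, at means of 27.5 RPKM against 31.7 RPKM in untreated cells for CDK1 and 28.4 RPKM against 32.5 RPKM for CCNA2. In normalised counts the histidine-depleted libraries overlapped the untreated ones, and the tryptophan-depleted ones lay 6.57-fold (CDK1) and 6.22-fold (CCNA2) lower.

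The mitotic cyclins B1 and B2 parted. CCNB1 stood at 9672 and 10315 in untreated, 11764 and 11522 in histidine-depleted and 2651 and 2828 in tryptophan-depleted libraries, a log2 fold change of 0.23 ± 0.051 (SE) without histidine and -1.87 ± 0.048 (SE) without tryptophan. CCNB2 had log2 fold changes of -0.78 ± 0.051 (SE) and -1.62 ± 0.048 (SE), called lower in both. The rise of CCNB1 was small, and with quantile normalisation it became -0.023 and was not called.

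PLK1, a kinase of centrosome maturation and mitotic entry, was at 7109 and 7653 in untreated, 8063 and 7982 in histidine-depleted and 1649 and 1662 in tryptophan-depleted libraries. Its log2 fold change without histidine, 0.13 ± 0.051 (SE, adjusted p = 0.0248 in limma), turned to -0.10 with quantile normalisation (adjusted p = 0.0145). In RPKM, scaled to all reads, it also stood lower, at a mean of 28.9 RPKM against 30.1 RPKM in untreated cells, so its direction after histidine depletion depends on the scaling. The call was also lost without the trend (0.162), without the filter (0.0705), and when histidine-depleted replicate 1 (0.218) or 2 (0.143) or untreated replicate 1 (0.104) was left out, all as adjusted p in limma. The fall of 2.16 on the log2 scale after tryptophan depletion kept its direction and its call under all alternatives run.

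NEK2, a kinase that separates centrosomes, rose 1.58-fold without histidine, from 2835 and 2869.5 to 4417 and 4546 normalised counts, and fell to 955 and 979 without tryptophan. AURKA, the centrosomal Aurora kinase, was at 8177 and 8490.1 in untreated and 8006 and 7807 in histidine-depleted libraries (log2 fold change -0.067 ± 0.050 (SE), not called), and 2.70-fold lower, at 3057 and 3138, in tryptophan-depleted ones. AURKA was called lower without histidine in limma with quantile normalisation (-0.31, adjusted p = 9.53e-06) or without untreated replicate 1 (adjusted p = 0.0427). CDC25C, the phosphatase that activates CDK1, went from 1461 and 1514 to 971 and 950.3 without histidine and to 415 and 449 without tryptophan. Of the 8 genes of this group, 2 were called lower and 3 higher without histidine, where the share of all genes was 38.2% and 39.1%, and all 8 lower without tryptophan, against 34.8%, with medians of -0.0080 and -1.83 on the log2 scale.

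**Figure D3:**
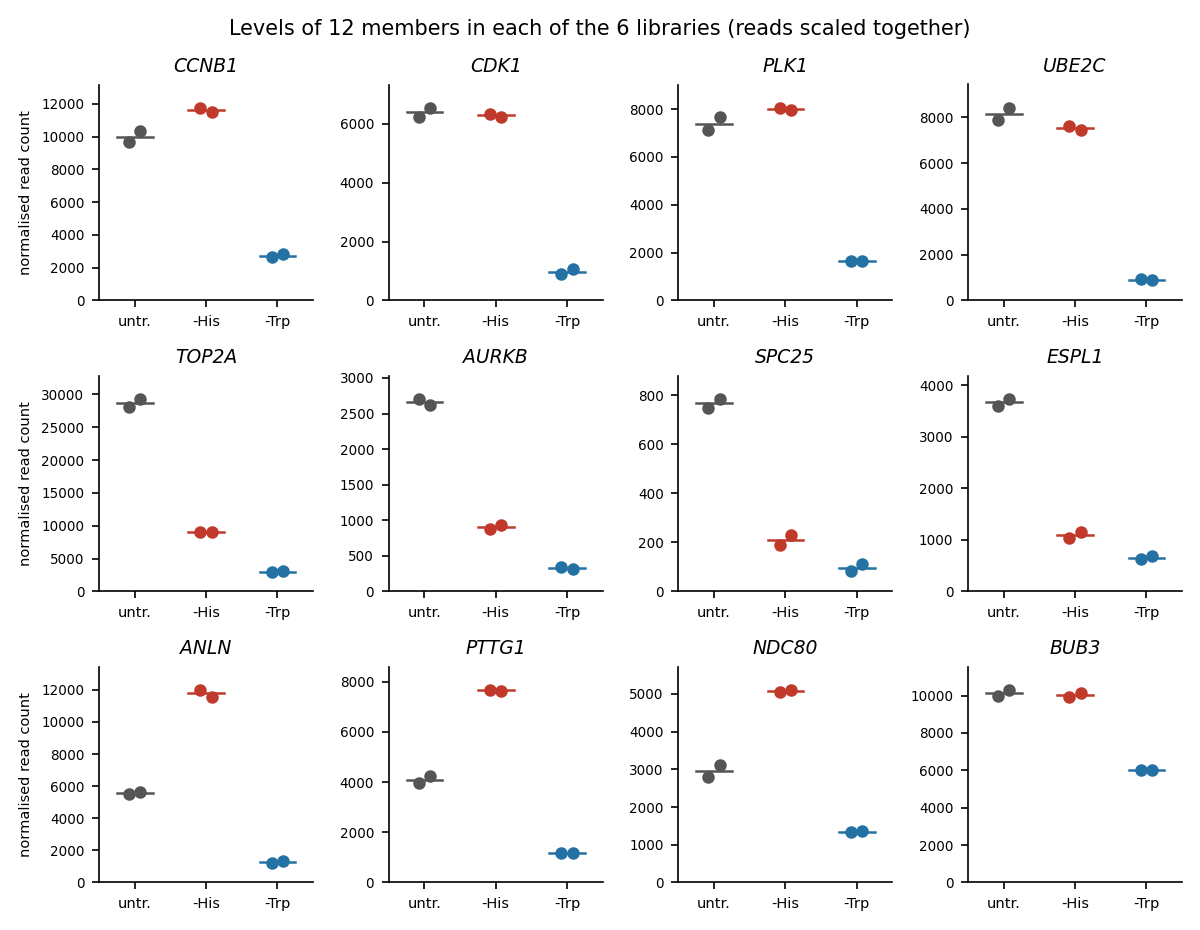
Normalised read counts (reads of the 6 libraries scaled together, axes from 0) of 12 members in untreated, histidine-depleted and tryptophan-depleted libraries, each point a library and each line the mean of 2. On this scale ANLN, PTTG1 and NDC80 were highest without histidine, as were CCNB1 and PLK1 by a smaller margin. TOP2A, AURKB, SPC25 and ESPL1 fell in both depletions, and CDK1 and BUB3 overlapped untreated only without histidine.

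All 4 genes grouped as chromosome structure and proliferation markers were called lower in both depletions, against 38.2% of all genes without histidine and 34.8% without tryptophan. TOP2A, topoisomerase II alpha, which untangles sister DNA, was at 28019 and 29365 in untreated, 8982 and 9048 in histidine-depleted and 2980.4 and 3081 in tryptophan-depleted libraries, falls of 3.16-fold and 9.51-fold. MKI67, the proliferation marker Ki-67 that coats mitotic chromosomes, went from 22314 and 23805 to 12860 and 12771 without histidine and 4526 and 4820.1 without tryptophan. These 2 genes lost 1.79-fold or more without histidine, and 4.96-fold or more without tryptophan, with no overlap of the conditions.

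NCAPG, a subunit of condensin I, had log2 fold changes of -0.79 ± 0.052 (SE) and -2.48 ± 0.056 (SE), and 33.7% of its exonic bases are also covered by LCORL on the opposite strand. PIMREG, which has 4 pseudogenes in the annotation, was at 1516 and 1582 in untreated, 1303 and 1334 in histidine-depleted and 166 and 141 in tryptophan-depleted libraries. Its fall of 10.1-fold without tryptophan was the lowest log2 fold change of the 50 members, whereas without histidine it was 1.17-fold lower.

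At the centromere and kinetochore the 4 genes of the NDC80 complex, the part that grips microtubules, moved in opposite directions without histidine. NDC80 rose from 2801 and 3104 to 5058 and 5113 without histidine and fell to 1333 and 1362 without tryptophan. SPC25 fell from 747 and 786 to 191 and 231 and 82.2 and 109.9 respectively, the lowest log2 fold change of any member without histidine (-1.85 ± 0.098, SE). NUF2, which pairs with NDC80, was 1.26-fold higher without histidine, from 1373 and 1429 to 1797 and 1709, and at 325 and 338 without tryptophan.

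The fourth subunit, SPC24, is not among the 50 members and had log2 fold changes of -2.80 without histidine and -3.88 without tryptophan. Set against each other per length, NDC80 over SPC25 stood at log2 ratios of 0.95 and 1.02 in untreated, 3.77 and 3.51 in histidine-depleted and 3.06 and 2.67 in tryptophan-depleted libraries. NUF2 over SPC24 stood at -0.32 and -0.23, 2.97 and 2.76, and 1.52 and 1.56 in the same order. These ratios, in which a factor common to all genes of a library cancels, were highest without histidine. Not every pair looked at rose in both depletions. The log2 ratio of KIF23 over RACGAP1 changed by -0.37 without histidine and -0.60 without tryptophan, and that of CCNB1 over CCNB2 by 1.01 and -0.25. All these ratios, like the others between members given below, were picked after the values were seen and are not tested.

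Of the other genes in this group, CENPA, the histone H3 variant of centromeres, went from 1019 and 1111 in untreated to 629 and 598 without histidine and 235 and 254 without tryptophan. CENPE, a kinesin of kinetochores, was at 3759.9 and 4015, 2763 and 2766 and 1075 and 1125 in that order, and CENPF, a large kinetochore protein of G2, at 12003 and 12782, 7839 and 7849.9 and 2604 and 2847. All 3 were called lower in both depletions without overlap of the conditions. Of the 7 members in the whole group, 4 were called lower, 2 higher and 1 not at all without histidine, where 38.2% of all genes were called lower and 39.1% higher. Without tryptophan all 7 were called lower, against 34.8% of all genes. SGO1, the shugoshin that shields centromeric cohesin, was at 595 and 529 in untreated, 559 and 612 without histidine and 124 and 133 without tryptophan, and overlapped the untreated libraries only without histidine, where it was not called but became higher with quantile normalisation in limma (0.28, adjusted p = 0.0114). Scaled to all reads SGO1 stood lower without histidine, at a mean of 2.68 RPKM against 2.92 RPKM in untreated cells, so its direction there depends on the scaling. SGO1-AS1 lies opposite 15.9% of the exonic bases of SGO1.

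The spindle assembly checkpoint was called lower in 4 of 5 genes without histidine and in 5 of 5 without tryptophan, against 38.2% and 34.8% of all genes. BUB1, the checkpoint kinase, was at 5275 and 5293 in untreated, 3056 and 3293 in histidine-depleted and 1527 and 1507 in tryptophan-depleted libraries. MAD2L1 (MAD2), which inhibits CDC20, went from 4287 and 4574 to 2384 and 2403 and 631 and 561 in the same order. The falls of BUB1 were 1.66-fold and 3.50-fold, and those of MAD2L1 1.84-fold and 7.47-fold.

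TTK (MPS1), the kinase that starts checkpoint signalling, had log2 fold changes of -1.14 ± 0.062 (SE) and -2.55 ± 0.070 (SE), and BUB1B (BUBR1) of -0.84 ± 0.051 (SE) and -2.25 ± 0.054 (SE). BUB3, a partner of BUB1 and BUBR1 that also acts outside mitosis, had the smallest fall of the 49 members called lower without tryptophan. It was at 9962 and 10315 in untreated, 9915 and 10152 in histidine-depleted and 5993 and 6002 in tryptophan-depleted libraries, a change of -0.0058 ± 0.050 (SE), not called, and -0.76 ± 0.046 (SE). With quantile normalisation BUB3 was called lower without histidine in limma (-0.26, adjusted p = 2.18e-05).

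Of the 4 genes of the chromosomal passenger complex, which corrects wrong attachments and later directs cytokinesis, 3 were called lower without histidine and 4 without tryptophan, against 38.2% and 34.8% of all genes. AURKB, its kinase, was at 2709.6 and 2618 in untreated, 872 and 928 without histidine and 346 and 320.5 without tryptophan. INCENP, its scaffold, went from 5433 and 5351 to 1944 and 2081 and 1355 and 1329 in that order, and lost 2.66-fold and 4.04-fold. BIRC5 (survivin), the subunit that reads a mark on centromeric histone H3, was at 4833 and 5127, 4672 and 4805 and 1050.0 and 1151.

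Without histidine BIRC5 was not called (-0.062 ± 0.051, SE), while AURKB (-1.56 ± 0.060, SE), INCENP (-1.41 ± 0.053, SE) and CDCA8 (borealin, -0.91 ± 0.052, SE) were lower. BIRC5 was called lower there in limma with quantile normalisation (-0.22, adjusted p = 0.000187) or without untreated replicate 1 (adjusted p = 0.0385). Per length, BIRC5 over AURKB stood at log2 ratios of 0.067 and 0.20 in untreated, 1.65 and 1.61 in histidine-depleted and 0.84 and 1.08 in tryptophan-depleted libraries. All 4 subunits were called lower without tryptophan, with a median log2 fold change of -2.10. INCENP differed little between the depletions, by 0.58 ± 0.047 (SE) on the log2 scale.

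Of the 10 spindle motors and microtubule-binding proteins, 9 were called lower in each depletion, against 38.2% of all genes without histidine and 34.8% without tryptophan. KIF11 (Eg5), the motor that pushes spindle poles apart, was at 5446 and 5819.5 in untreated, 2947 and 2905 in histidine-depleted and 898 and 907 in tryptophan-depleted libraries. KIF2C (MCAK), which shortens microtubules at centromeres, was at 5546 and 5553, 4342 and 4503 and 1374 and 1457 in the same order. TPX2, which activates AURKA on the spindle, was at 16892 and 17470, 14730 and 14793 and 4836 and 5021. KIF11 fell 1.91-fold without histidine, KIF2C 1.25-fold and TPX2 1.16-fold, and the log2 fold changes without tryptophan were -2.65, -1.98 and -1.81. The call of TPX2 without histidine was lost in limma when histidine-depleted replicate 1 (adjusted p = 0.0571) or 2 (0.0574) was left out.

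TACC3, a spindle protein that stabilises microtubule bundles, had nearly the same level in both depletions. It was at 6806 and 7112 in untreated, 3167 and 3257 in histidine-depleted and 2774 and 2799 in tryptophan-depleted libraries, and its difference between the depletions, 0.20 ± 0.042 (SE) on the log2 scale, was the smallest of the 50 members, although called. At the other end of the group GTSE1, a protein of G2 and S phase that binds microtubules, was at 2057 and 2151, 1880.2 and 1942 and 279 and 281 in the same order. DLGAP5 fell 2.06-fold and 3.43-fold, and HMMR, a spindle protein and hyaluronan receptor, 1.15-fold and 4.57-fold. The small fall of HMMR without histidine lost its call in limma without the trend (adjusted p = 0.0658) or without histidine-depleted replicate 2 (0.0528). That of GTSE1 lost its call in 6 alternatives, with DESeq2 (adjusted p = 0.0731) and in limma without the filter (0.0818), without the trend (0.132), or without histidine-depleted replicate 1 (0.242) or 2 (0.102) or untreated replicate 2 (0.137).

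The chromokinesin KIF4A changed by -0.62 ± 0.051 (SE) and -1.97 ± 0.051 (SE) on the log2 scale, and CKAP2 by -0.27 ± 0.050 (SE) and -1.06 ± 0.047 (SE). NUSAP1 was at 19.7 and 11.9 in untreated, 19.9 and 36.6 in histidine-depleted and 21.3 and 23.8 in tryptophan-depleted libraries. At about 0.1 RPKM these are few reads, and 86.8% of the exonic bases of NUSAP1 are overlapped on the same strand by other annotated genes. NUSAP1 was called higher without histidine in limma with a pseudocount of 8 (adjusted p = 0.031), with the replicate block (0.0315), and when histidine-depleted replicate 1 (0.00709) or untreated replicate 1 (0.0226) was left out, and no direction is read for it.

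At anaphase onset and in mitotic proteolysis, securin and separase parted without histidine. PTTG1 (securin), the inhibitor that APC/C destroys at anaphase, was at 3979.6 and 4230.1 in untreated, 7689.6 and 7626 in histidine-depleted and 1168 and 1171 in tryptophan-depleted libraries. ESPL1 (separase), the protease it holds back, was at 3597 and 3743, 1034 and 1159.9 and 637 and 679 in the same order. PTTG1 thus rose 1.88-fold without histidine while ESPL1 fell 3.33-fold, and their log2 ratio per length went from 2.32 and 2.35 in untreated to 5.06 and 4.89 without histidine and 3.05 and 2.96 without tryptophan.

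CDC20, the activator of APC/C in mitosis, was at 8694 and 8805 in untreated, 7549.6 and 7657 in histidine-depleted and 1326 and 1248 in tryptophan-depleted libraries. UBE2C, the conjugating enzyme of APC/C, was at 7899 and 8419.5, 7632 and 7455 and 916 and 901 in the same order, and has 5 pseudogenes in the annotation. CDCA3, which promotes mitotic entry, was at 1903 and 1936, 1468 and 1529 and 195 and 193. Without tryptophan these 3 genes fell 6.83-fold, 9.02-fold and 9.88-fold, whereas without histidine their log2 fold changes were -0.19 ± 0.049, -0.10 ± 0.051 and -0.35 ± 0.058 (SE). UBE2C was not called in the latter (adjusted p = 0.0682 in limma), but was called lower in 6 alternatives, among them edgeR (adjusted p = 0.00821), DESeq2 (0.0381) and limma with quantile normalisation (-0.34, adjusted p = 5.79e-06). CDC20 lost its call without histidine when histidine-depleted replicate 1 was left out of the limma fit (adjusted p = 0.053).

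In the central spindle and cytokinesis group, ANLN had the highest log2 fold change of the 50 members without histidine. ANLN (anillin), which scaffolds the contractile ring, was at 5509.8 and 5657 in untreated, 12012 and 11548 in histidine-depleted and 1204 and 1349 in tryptophan-depleted libraries. Its log2 fold change was 1.09 ± 0.050 (SE) without histidine and -2.14 ± 0.052 (SE) without tryptophan, and the depletions differed by 3.21 ± 0.050 (SE), the widest gap of any member. ECT2, which activates RhoA at the furrow, was at 15864 and 16689, 14236 and 14117 and 3637 and 3788 in the same order. Its fall without histidine (-0.19 ± 0.051, SE) lost its call in limma without the trend (adjusted p = 0.056) and when histidine-depleted replicate 1 (0.0682) or 2 (0.100) was left out.

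KIF20A (MKLP2), which carries the passenger complex to the central spindle, was at 3554 and 3549 in untreated, 3731 and 3975 in histidine-depleted and 793 and 779 in tryptophan-depleted libraries. Its rise without histidine, 0.13 ± 0.052 (SE, adjusted p = 0.0312 in limma), lost its call in 6 alternatives, among them DESeq2 (adjusted p = 0.0635), limma with quantile normalisation (0.853) and limma without histidine-depleted replicate 1 (0.0607) or 2 (0.368). Scaled to all reads, KIF20A stood lower without histidine, at a mean of 17.1 RPKM against 17.9 RPKM, so its direction there depends on the scaling.

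The subunits of centralspindlin, KIF23 (MKLP1) and RACGAP1, changed by -0.45 ± 0.052 (SE) and -0.083 ± 0.050 (SE, not called) on the log2 scale without histidine, and by -2.08 ± 0.051 (SE) and -1.48 ± 0.049 (SE) without tryptophan. RACGAP1 was called lower without histidine by edgeR (adjusted p = 0.024) and by limma with quantile normalisation (-0.26, adjusted p = 3.56e-05) or without untreated replicate 1 (adjusted p = 0.025). KIF14, a kinesin of the midbody, changed by -0.26 ± 0.055 (SE) and -2.09 ± 0.061 (SE). PRC1, which bundles the central spindle, was at 63.4 and 46.7 in untreated, 26.2 and 23.4 in histidine-depleted and 10.67 and 10.99 in tryptophan-depleted libraries. At about 0.2 RPKM in untreated cells and with 57.6% of its exonic bases overlapped on the same strand by another annotated gene, its values are uncertain.

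Promoter windows of 300 bases, 250 before and 50 after the start of the gene, were taken from RefSeq (GRCh38.p14) to see what the members share in sequence. The first window listed for each gene was used for members and for all genes alike, and 42 of the 50 members had one. AURKA, TPX2, TTK, BIRC5, BUB3, PIMREG, UBE2C and RACGAP1 had none. The CHR was searched as TTTGAA or TTCGAA and the CCAAT box as CCAAT, both on either strand. The 100 bases before the start are shown for 9 members, 7 of them with a CHR close to the start. The others, CCNB1 and PTTG1, were called higher without histidine and have no match to the searched letters in the window. The bases shown for both hold TTTAAA, which was not searched, so the search does not show that a CHR is absent. Capitals mark each CHR and CCAAT box (on the opposite strand TTCAAA and ATTGG), and each sequence is read 5′ to 3′ in the direction of the gene.
CCNB2 (GRCh38.p14, chr15:59105046-59105145, + strand): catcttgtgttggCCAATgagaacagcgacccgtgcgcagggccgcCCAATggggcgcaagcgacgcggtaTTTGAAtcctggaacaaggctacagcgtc
PLK1 (GRCh38.p14, chr16:23678789-23678888, + strand): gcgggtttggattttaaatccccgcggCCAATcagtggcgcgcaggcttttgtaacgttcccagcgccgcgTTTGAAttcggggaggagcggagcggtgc
KIF11 (GRCh38.p14, chr10:92593030-92593129, + strand): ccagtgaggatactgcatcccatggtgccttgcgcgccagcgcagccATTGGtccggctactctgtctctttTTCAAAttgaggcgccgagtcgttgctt
MKI67 (GRCh38.p14, chr10:128126424-128126523, - strand): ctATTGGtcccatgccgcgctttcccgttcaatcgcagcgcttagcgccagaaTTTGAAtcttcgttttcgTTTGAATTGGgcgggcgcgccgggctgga
BUB1B (GRCh38.p14, chr15:40160969-40161068, + strand): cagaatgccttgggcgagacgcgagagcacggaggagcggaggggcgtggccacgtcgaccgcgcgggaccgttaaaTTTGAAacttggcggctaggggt
ESPL1 (GRCh38.p14, chr12:53268199-53268298, + strand): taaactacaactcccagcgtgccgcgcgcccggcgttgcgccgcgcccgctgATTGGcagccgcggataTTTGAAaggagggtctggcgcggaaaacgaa
ANLN (GRCh38.p14, chr7:36389762-36389861, + strand): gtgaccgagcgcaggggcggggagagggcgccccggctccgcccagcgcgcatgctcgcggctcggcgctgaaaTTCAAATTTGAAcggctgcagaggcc
CCNB1 (GRCh38.p14, chr5:69167050-69167149, + strand): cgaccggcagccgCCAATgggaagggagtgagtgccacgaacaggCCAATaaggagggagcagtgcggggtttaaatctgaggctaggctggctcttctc
PTTG1 (GRCh38.p14, chr5:160421755-160421854, + strand): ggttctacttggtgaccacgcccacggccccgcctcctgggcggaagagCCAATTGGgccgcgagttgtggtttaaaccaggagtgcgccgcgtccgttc
In these windows the CHR of CCNB2 and PLK1 starts 29 bases before the start, that of KIF11 28, that of BUB1B 23 and that of ESPL1 31. MKI67 has a CHR at -47 and another at -29, and the latter overlaps a CCAAT box. In ANLN a TTCAAA at -26 is followed at once by a TTTGAA at -20, without a CCAAT box in the window. CCNB1 has CCAAT boxes at -87 and -55, and PTTG1 at -103 and, overlapping on opposite strands, at -51 and -48.

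Over the 42 windows, 31 (73.8%) held a CHR, against 16.6% of the 27305 genes with a window. In 20 (47.6%) a CHR started within the 60 bases before the start, against 3.16% of all genes. A CCAAT box was in 32 windows (76.2%, against 35.7%), 18 held at least 2 (42.9%, against 11.3%), and 26 held a CHR and a CCAAT box (61.9%, against 6.58%). In 5 windows neither was found, which says only that these letters are not in them. The 31 members with a CHR match had median log2 fold changes of -0.65 without histidine and -2.16 without tryptophan, and the 11 without a match -0.27 and -1.83. Other forms of the CHR were not searched in these 11. Of the 31, 24 were called lower and 4 higher without histidine, and of the 11, 6 lower and 4 higher, beside 38.2% lower and 39.1% higher over all genes. The 8 members without a window are in neither group, and had a median of -0.093 without histidine. Because 5 of these 8 were not called there, the medians of the groups with and without a CHR match cannot be set against that of all 50. These shares and medians are descriptions, and a match is not evidence of binding.

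Other mitotic genes were counted from lists of 102 genes that are not members. Without histidine 69 of them were called lower, 19 higher and 14 not at all, with a median log2 fold change of -0.52, and without tryptophan 90 of the 101 tested were lower and 8 higher, with a median of -1.46. Over all genes tested, the background for this list and those that follow, 38.2% were lower and 39.1% higher without histidine, and 34.8% lower and 36.1% higher without tryptophan. Among 29 other centromere and kinetochore genes, 22 were lower and 3 higher without histidine, and 28 lower and 1 higher without tryptophan. The extremes were SPC24 (-2.80) and MIS12 (1.59), part of the platform that joins the centromere to the NDC80 complex, without histidine, and ZWINT (-3.96) and MIS12 (0.89) without tryptophan.

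Of 17 other condensin and cohesin genes, 13 were lower and 3 higher without histidine (all genes 38.2% and 39.1%), from NCAPH (-1.48) to SGO2 (0.53), and 15 lower and 2 higher without tryptophan (all genes 34.8% and 36.1%), from CDCA5 (-3.37), the cohesin protector sororin, to STAG2 (0.24). Of 20 other spindle genes, 16 were lower and 3 higher without histidine, from KIF15 (-2.18) to CKAP2L (0.97), and 19 lower and 1 higher without tryptophan, from KIF18B (-3.37) to NUMA1 (0.12). The 16 other regulators of mitotic entry held 10 lower and 1 higher without histidine, with PBK lowest (-2.12) and CCNB3 highest (0.51, not called). Without tryptophan 15 of them were lower and 0 higher, from PKMYT1 (-3.33), the kinase that inhibits CDK1, to ARPP19 (-0.16).

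Of 20 APC/C subunits and regulators, 8 were lower and 9 higher without histidine, shares near the 38.2% and 39.1% of all genes tested, with a median log2 fold change of 0.041, from TRIP13 (-3.33), an ATPase that recycles MAD2, to MAD2L1BP (1.21), its adaptor. Without tryptophan 13 of 19 tested were lower and 4 higher (all genes 34.8% and 36.1%), with a median of -0.24, from TRIP13 (-3.43) to ANAPC16 (0.67). Many APC/C core subunits are expressed throughout the cell cycle.

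The transcriptional regulators of G2/M genes were counted as a list of 15, of which 9 were lower and 5 higher without histidine (38.2% and 39.1% of all genes), and 12 lower and 0 higher without tryptophan (34.8% and 36.1%). MYBL2, which encodes B-MYB, had the lowest values of this list in both, log2 fold changes of -2.44 without histidine and -4.48 without tryptophan. FOXM1 changed by -0.78 and -2.78. LIN52 was highest without histidine (0.95) and LIN37 without tryptophan (0.027, not called), both subunits of DREAM.

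DNA replication genes were lower than the mitotic members in their median in both depletions. Of 30, 28 were called lower and 0 higher without histidine (all genes 38.2% and 39.1%), with a median log2 fold change of -1.61, from ORC1 (-2.72) to DTL (0.082, not called). Without tryptophan all 30 were lower (all genes 34.8%), with a median of -3.07, from CDC45 (-4.56), part of the replicative helicase, to CDC6 (-0.84). In the direct comparison all 30 were called higher after histidine than after tryptophan depletion (all genes 38.7%), with a median of 1.49. The difference in median between this list and the members is a description without a test.

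**Figure D4:**
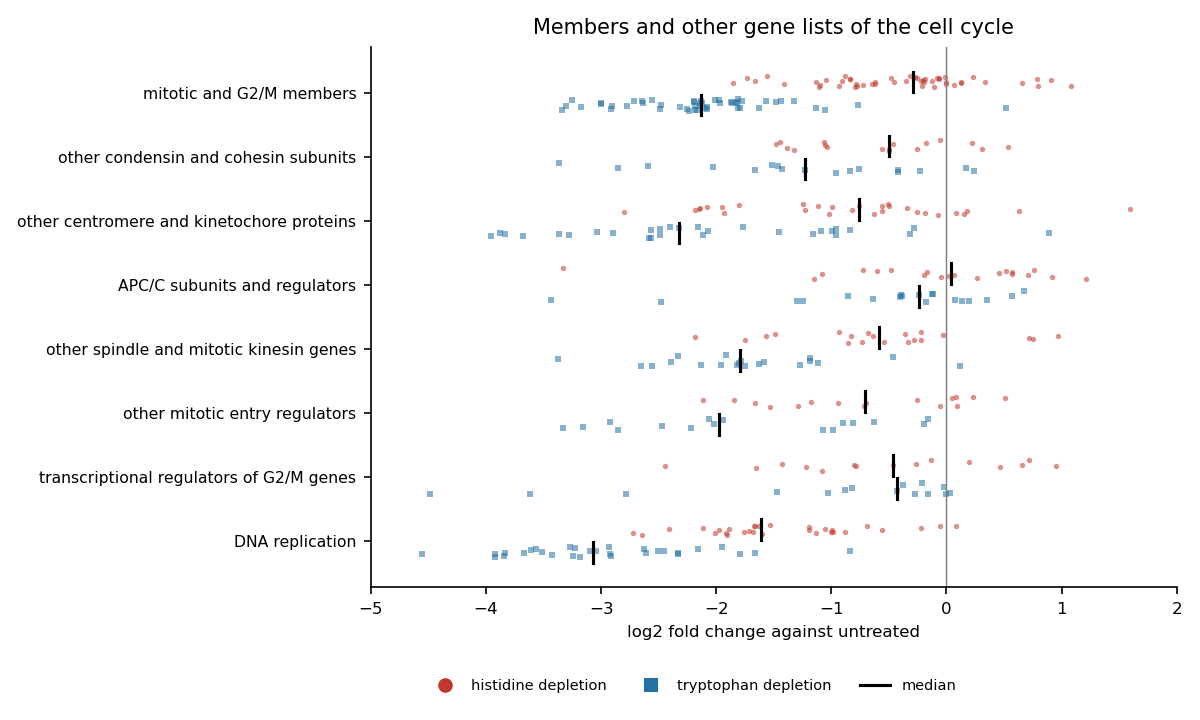
Log2 fold change against untreated of the 50 members and of 7 other lists of cell cycle genes, after histidine depletion (red circles) and tryptophan depletion (blue squares), with black bars at the medians and vertical scatter without meaning. The medians of the members lie at -0.29 and -2.13, those of the DNA replication genes at -1.61 and -3.07 and those of the APC/C list at 0.041 and -0.24.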

How the data were processed

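Per the study's methods, the authors made stranded mRNA libraries with adapters carrying molecular identifiers, used STAR 2.7.10a for alignment (GRCh38) and HTSeq 2.0.5 for counting reads on exons of an earlier gencode release. The values the authors deposited are a signal, counts divided by 1 DESeq2 size factor a library, in a separate table for each depletion. The methods name exons of protein-coding genes, but 18714 genes of other types in GENCODE 44 also had reads in the tables, OIP5-AS1, which overlaps NUSAP1, among them. Whether identifiers or strand were used in counting is not given in the sources used here. Since each table has its own normalization, untreated and depleted cells were compared inside a table. In each library 100% of the deposited values were whole multiples of a step (tolerance 0.01 reads), which gave back the reads. For the direct comparison all 6 libraries received common median-of-ratios factors.

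Genes with a mean of at least 10 entered a two-sided limma 3.58.1 fit with a trend (R 4.3.3) on log2(normalized count + 1), and Benjamini-Hochberg adjusted p under 0.05 was called. For genes with few counts the fold on this scale is too small. With 2 residual degrees of freedom the spread of a gene rested mostly on that of all genes (estimated prior degrees of freedom 21.2 for histidine and 135 for tryptophan depletion, and 13.4 beside 3 residual ones for the direct comparison), so very small adjusted p-values should not be compared between depletions. Over the same genes edgeR 4.0.16 with TMM called 14280 after histidine depletion, 12839 after tryptophan depletion and 14240 between them, and DESeq2 1.42.0 called 12484, 10777 and 12659. Both ran on the recovered reads as alternatives, beside pseudocounts of 0.5 and 8, a mean of at least 50, no filter, no trend, quantile normalization, other sets of libraries in the fit, each library left out, a replicate block and a limit on the fold change. Replicate numbers did not pair the libraries. The code was tested on simulated counts.

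The members, the lists, the named genes and the tests were chosen with earlier results of these data known. By the rule for named genes, 30 members fixed by name, the 3 lowest and 3 highest per comparison and those called higher in a depletion (38 in all) have values per library, unless their fold changes are given alone, and from other lists FOXM1, MYBL2 and the extremes are named. Names, lengths and overlaps came from GENCODE 44, in which 60357 identifiers were found and 319 were not, and promoter windows from RefSeq. Tables and plots used pandas 2.3.3, matplotlib 3.10.9 and numpy 2.4.6 under Python 3.11.15.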

Additional observations from a re-analysis of the deposited data

Results flagged for a closer look

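The depletions had opposite directions in 8 members, which were called higher after histidine and lower after tryptophan depletion. In these members the direct test between the depletions was also called. Of all genes tested, 39.1% were called higher without histidine and 34.8% lower without tryptophan. The share of all genes that met these calls together was not counted. Whether 8 members are more or fewer than among all genes therefore cannot be told. The log2 difference, histidine minus tryptophan depletion, was 3.21 for ANLN, 2.71 for PTTG1, 2.40 for NUF2, 2.29 for KIF20A, 2.28 for PLK1, 2.21 for NEK2, 2.09 for CCNB1 and 1.92 for NDC80. The share of the difference that lies above untreated was small in CCNB1, PLK1 and KIF20A and depends there on the scaling, as given with each gene.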

How the results depend on the processing

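Every median of the members kept its direction under all alternatives run. Without a limit on the fold change, each member kept its direction and its side of the threshold after tryptophan depletion wherever it was tested; NUSAP1 and PRC1 were not tested at a mean of at least 50. With quantile normalisation the median log2 fold change of the members without histidine moved from -0.29 to -0.48 and the median difference between the depletions from 1.60 to 1.53, and 41 members were then called lower and 6 higher without histidine. Leaving out a library each time, the median without tryptophan ranged from -2.18 to -2.07, the latter without tryptophan-depleted replicate 1. With a limit of 2-fold, 9 members were called lower and 1 higher without histidine, instead of 33 and 8, and 48 instead of 49 lower without tryptophan, BUB3 being the one lost. With the replicate block, 34 were lower and 9 higher without histidine and 49 lower without tryptophan; replicate numbers share only a number (correlations of their deviations 0.11, -0.018 and -0.051), and no paired design is assumed. Without NUSAP1 and PRC1, an alternative chosen after seeing the data, 32 were lower and 8 higher without histidine and 48 lower without tryptophan.

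Reversals after histidine depletion with quantile normalisation were CCNB1 (-0.023) and PLK1 (-0.10). Leaving out a library each time, values not called ran from -0.034 to 0.022 for BUB3 (0.0080 without histidine-depleted replicate 1), from -0.066 to 0.062 for CCNA2, from -0.053 to 0.024 for CDK1 (0.00065 without histidine-depleted replicate 2) and from -0.012 to 0.15 for SGO1, and NUSAP1 between the depletions from -0.17 to 0.68. Of the single-gene values without histidine, 8 members lost a call and 9 gained one in at least 1 alternative other than the 2-fold limit. The cause was not tested. With 2 libraries a condition, changes near 0.2 on the log2 scale are at the limit of what these data resolve.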
